A study of Rattus norvegicus with 9 samples.

Results

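Kupffer cells are the macrophages that live in the sinusoids of the liver, and the genes described here are 39 genes of Kupffer cells and other macrophages, chosen by name. Of these, 36 had a row in the deposited count table, out of 24496 rows in all, and 33 passed the filter on low counts and were tested. Cd5l, Itgam and Itgax had no row under those symbols and are not analysed here, and Trem2, Cx3cr1 and Slc40a1 were below the filter. The livers came from 9 individual female Wistar rats, 19 weeks old at harvest, each giving 1 library. In 4 rats an osmotic pump supplied follicle-stimulating hormone (FSH) at a daily 6 µg per kg (degarelix+FSH, here FSH livers), and in 5 the pump held vehicle alone (degarelix-only, here vehicle livers). What both groups shared was western diet begun at 10 weeks of age, removal of the ovaries 6 weeks later, treatment with degarelix, a drug that blocks the receptor for gonadotropin-releasing hormone, 12 days of restricted feeding followed by 7 days of free feeding, and a fast of 4 h before harvest. No intact or untreated rat is among these samples, so the comparison asks what FSH adds in ovariectomised, degarelix-treated rats.

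Resident Kupffer cells descend from embryonic precursors, renew themselves in place and clear bacteria, lipoproteins, aged red cells and dying cells from portal blood. In mice they are marked by the lectin CLEC4F, the phosphatidylserine receptor TIM4 and the complement receptor VSIG4. Mouse macrophages newly arisen from blood monocytes lack TIM4 and can take up a lipid-associated state marked by TREM2 and GPNMB in fatty liver. Macrophages as a whole depend on the growth factor receptor CSF1R and on the transcription factor PU.1, and they are the main source of the recognition subunit of complement, C1q. Several genes of the list are not confined to macrophages: hepatocytes also express Nr1h3 and Cd14, and sinusoidal endothelial cells express Mrc1 and Id3.

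The macrophage genes varied together from animal to animal, and 1 liver stood apart. Vehicle replicate 2 was the lowest of the 9 livers in 29 of the 33 genes tested, whereas it was the lowest in 14.3% of the 11924 genes tested in the whole table. Levels here are CPM, counts per 1e6 counts after scaling for library size and composition. The median of that liver over the 33 genes lay 0.77 below the vehicle mean on the log2 scale, while the other vehicle livers lay between 0.10 and 0.33 above it and the FSH livers at −0.27, 0.04, 0.35 and −0.10 (replicates 1 to 4). The exceptions were Nr1h3, Mertk, Cd14 and Spic. Among vehicle livers the median SD of a macrophage gene was 0.45 on the log2 scale with this liver and 0.22 without it, where all genes have 0.19 and 0.18. At the other end, FSH replicate 3 and vehicle replicate 5 each held the highest value in 11 of the 33 genes, beside 11.9% of all genes for FSH replicate 3 and 7.8% for vehicle replicate 5. The library of vehicle replicate 2 was not shallow, with 26130532 counts where the 9 libraries ranged from 19295580 to 28672439, and its scaling factor of 1.06 was the highest (range 0.933 to 1.06). Scaled by total counts alone, it was still the lowest in 24 of 33 genes.

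**Figure D1:**
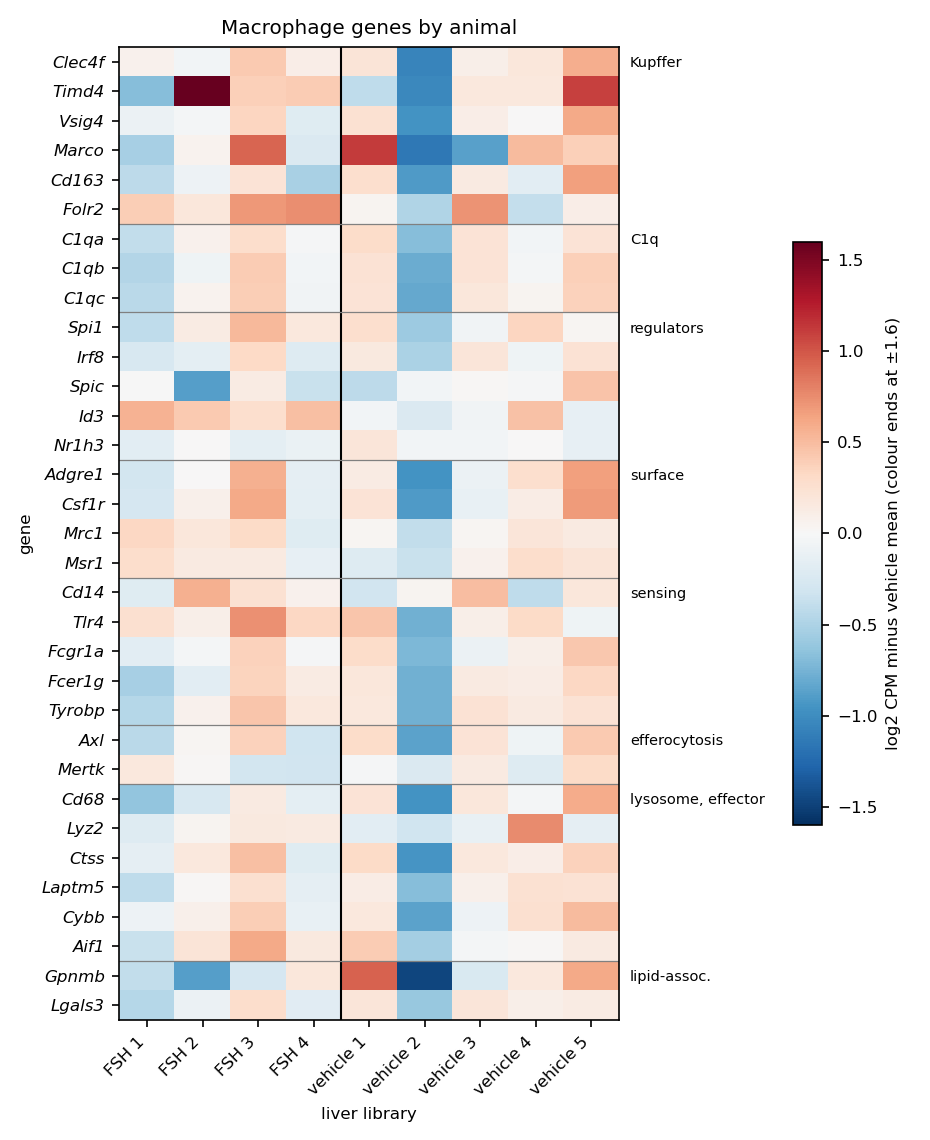
Log2 CPM minus the mean of the vehicle livers (colour) for each of 33 macrophage genes (rows, by role) in each of 9 livers (columns, FSH left of the line, vehicle right of it). Vehicle replicate 2 is low in nearly every row, and FSH replicate 3 and vehicle replicate 5 are high in most rows.

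No macrophage gene passed the test for a change with FSH. Of the 33 genes tested, 0 passed an adjusted p (FDR) of 0.05 in edgeR's quasi-likelihood test, where 0.0335% of the 11924 genes tested in the whole table passed, and the smallest adjusted p among the 33 was 0.319, for Id3. Fold changes, given throughout as FSH over vehicle on the log2 scale, were above 0 for 15 genes and below 0 for 18, with a median of −0.02, beside a median of 0.00 over all genes. At an unadjusted p under 0.05 there was 1 gene of 33, beside 11.6% of all genes. There were 0 of 33 genes in which every FSH liver lay above, or every FSH liver below, all vehicle livers, beside 4.11% of all genes. DESeq2's Wald test also called 0 of the 33, beside 1.64% of all genes to which it gave an adjusted p. Without vehicle replicate 2 again 0 of 33 passed in edgeR, where 3 of 11845 genes did, with 8 fold changes above 0 and 25 below and a median of −0.15. In whole liver, fewer macrophages and less RNA per macrophage cannot be told apart.

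**Figure D2:**
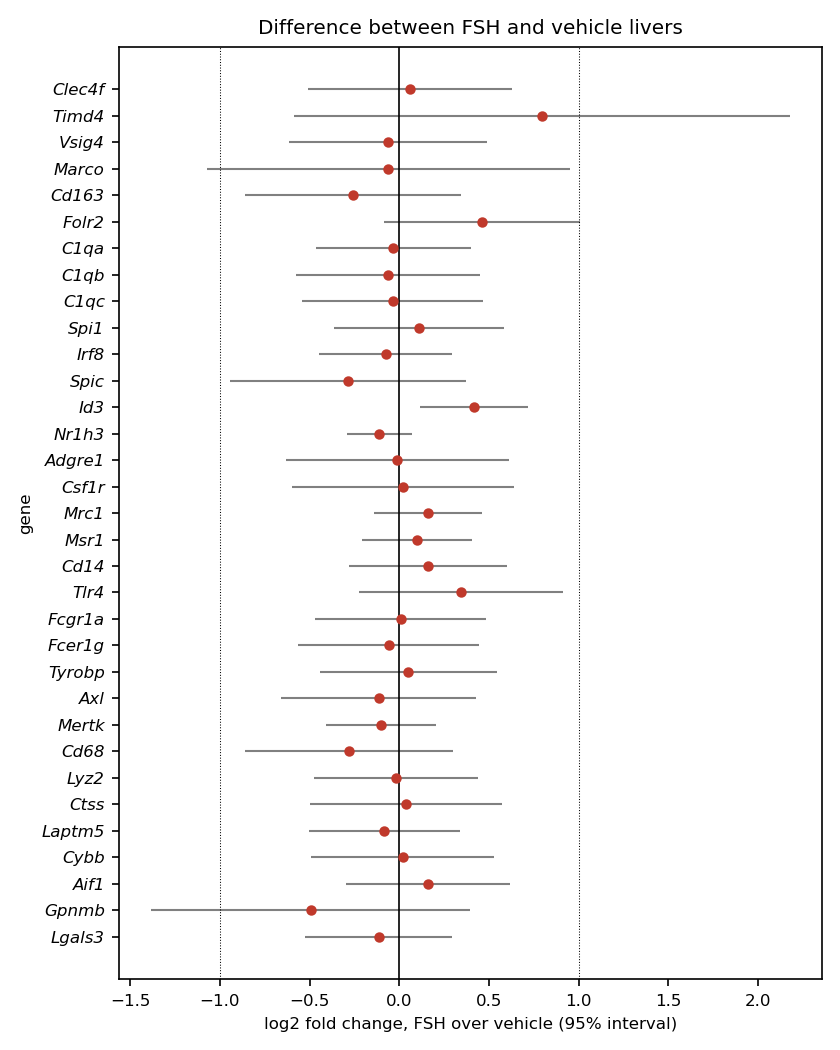
Log2 fold change of FSH over vehicle (x axis) for each of the 33 macrophage genes tested (y axis, by role), with 95% intervals from edgeR; dotted lines mark a doubling and a halving. The interval of Id3 alone leaves out 0, and those of Timd4, Marco, Folr2 and Gpnmb reach past a dotted line.

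For most genes the data bound the size of a difference. In 29 of the 33 the 95% interval of the fold change lay within a doubling in either direction, that is within 1 on the log2 scale. The exceptions were Timd4 (−0.59 to 2.18), Marco (−1.07 to 0.95), Folr2 (−0.08 to 1.01) and Gpnmb (−1.38 to 0.39). The median standard error of the fold changes was 0.23 for macrophage genes, against 0.13 over all genes, so smaller differences were harder to detect in this list. The intervals and p-values set each difference against the spread between animals within the groups together with counting error, in these 9 animals.

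Markers of other cells were read in the same livers. Vehicle replicate 2 was also the lowest liver in 29 of 53 other macrophage and monocyte genes, in 5 of 7 genes of T, NK and B cells, in 2 of 3 neutrophil genes and in 3 of 3 erythroid genes. It was the lowest in 1 of 8 sinusoidal endothelial genes, 1 of 8 stellate cell genes, 1 of 7 hepatocyte genes, 0 of 4 cholangiocyte genes and 0 of 4 dendritic cell genes. The median deviation in that liver was −0.46 for T, NK and B cells, −0.76 for neutrophils and −0.49 for erythroid genes, against −0.04 for sinusoidal endothelium and −0.15 for hepatocytes. The neutrophil value rests on 3 genes of few counts: S100a9, Csf3r and Fcnb had 9, 5 and 8 counts in that liver. They had 8, 5 and 8 counts in the shallower library of vehicle replicate 1, so the neutrophil result is weak. Summed over the list, macrophage genes stood at 1110 to 1539 CPM in FSH livers and 809 to 1593 CPM in vehicle livers. Summed neutrophil genes stood at 1.31 to 3.98 CPM in FSH livers and 1.19 to 3.47 CPM in vehicle livers, and Ltf was at 0 in all 9. The part of blood or of other cells in the macrophage values was not tested.

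**Figure D3:**
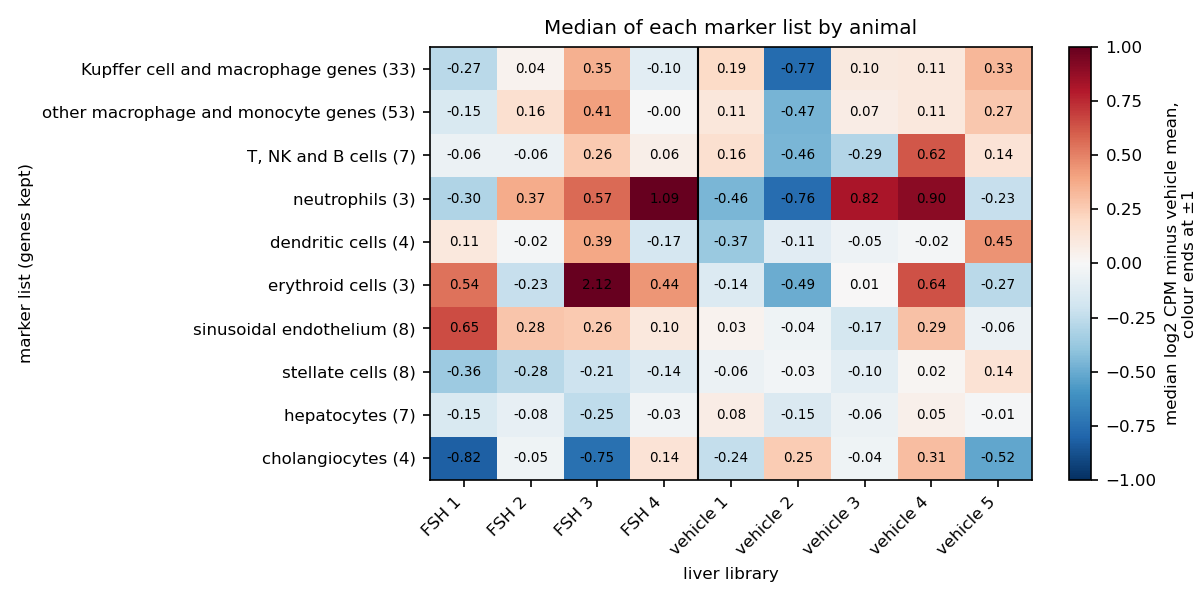
Median log2 CPM minus the vehicle mean (colour and printed value) for each marker list (rows, with the number of genes that passed the filter) in each liver (columns, FSH left of the line, vehicle right of it). In vehicle replicate 2 the median is −0.77 for Kupffer cell and macrophage genes and −0.47 for other macrophage and monocyte genes, and near 0 for sinusoidal endothelium and stellate cells.

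The shared component can be taken out by setting each gene against the median of the 33 in the same liver, a step chosen after seeing the data. The median SD between vehicle livers then came to 0.22 on the log2 scale, against 0.45 before, where all genes have 0.19. Between FSH livers it came to 0.17, against 0.31 before, where all genes have 0.18. The SD was smaller after this step in 25 of 33 genes among vehicle livers and in 24 of 33 among FSH livers. This step lowers the SD of genes that vary together by construction, and in the vehicle group leaving out replicate 2 alone gave the same 0.22. Without that liver, the median SD was 0.22 before the step and 0.17 after it. Relative to the list, again 0 of 33 genes had groups that did not overlap, beside 0.411% of all genes set against the same medians. That share was 4.11% before the step. The step adds the variation of the list to genes that do not share it, so the lower share is no like background. No conclusion is drawn from this count.

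The promoters of some of these genes are shown because they varied together from animal to animal, and because PU.1, encoded by Spi1, is a known regulator of many macrophage promoters. Promoters from RefSeq (build GRCr8) were found for 31 of the 39 genes, Cd5l, Itgam and Itgax included, and the 250 bases before the start were searched on both strands for the PU box core GAGGAA. It was found in 18 of 31 macrophage promoters (58.1%), beside 23.3% of 33469 rat promoters of the same length. An interferon response element (GAAA, any 2 bases, then GAAA again) was found in 3 of 31 (9.68%), those of Adgre1, Ctss and Cybb, beside 3.41% of all promoters, and in these it shared no letters with a PU box. A match describes the letters and not a bound site. Capitals mark the PU box core as read on either strand (GAGGAA or TTCCTC).
C1qb (chr5:154407828-154408077, minus strand): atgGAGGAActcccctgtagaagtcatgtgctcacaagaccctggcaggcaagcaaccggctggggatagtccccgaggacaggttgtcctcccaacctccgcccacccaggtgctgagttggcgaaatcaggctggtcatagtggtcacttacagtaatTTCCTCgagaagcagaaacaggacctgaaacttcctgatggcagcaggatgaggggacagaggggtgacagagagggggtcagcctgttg
Csf1r (chr18:56834129-56834378, plus strand): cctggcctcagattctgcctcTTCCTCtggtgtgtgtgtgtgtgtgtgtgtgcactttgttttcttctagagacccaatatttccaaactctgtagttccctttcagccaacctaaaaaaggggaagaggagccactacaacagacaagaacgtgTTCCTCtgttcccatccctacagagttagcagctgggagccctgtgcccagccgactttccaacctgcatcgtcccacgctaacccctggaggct
Ctss (chr2:185775146-185775395, plus strand): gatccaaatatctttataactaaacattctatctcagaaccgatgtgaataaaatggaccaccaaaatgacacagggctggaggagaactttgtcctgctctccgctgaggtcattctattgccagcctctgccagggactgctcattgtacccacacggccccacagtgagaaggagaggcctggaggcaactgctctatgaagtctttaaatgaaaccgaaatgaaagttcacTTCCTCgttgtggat
Cybb (chrX:16065066-16065315, minus strand): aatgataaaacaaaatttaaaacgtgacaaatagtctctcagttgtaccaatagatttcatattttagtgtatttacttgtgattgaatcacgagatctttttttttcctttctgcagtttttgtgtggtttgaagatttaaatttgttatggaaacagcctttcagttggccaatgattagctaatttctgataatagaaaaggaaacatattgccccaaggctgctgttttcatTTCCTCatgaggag
Clec4f (chr4:117696408-117696657, minus strand): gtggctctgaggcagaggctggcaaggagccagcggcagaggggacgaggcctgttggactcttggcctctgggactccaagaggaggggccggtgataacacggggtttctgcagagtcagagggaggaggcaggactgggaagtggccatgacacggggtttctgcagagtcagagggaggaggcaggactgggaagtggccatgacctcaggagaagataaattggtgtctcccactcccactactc
In Ctss and Cybb the first base of the match lies 15 and 14 bases before the start, and in C1qb and Csf1r the nearer match lies 90 and 95 bases before it. Clec4f has no match in this window, nor have C1qa, Cd163 and Vsig4. Vehicle replicate 2 was the lowest liver for these genes, as for the 4 with a match printed here. Of the genes for which it was not the lowest, Nr1h3, Mertk and Spic have no match and Cd14 has 2. Whether the PU box bears on the shared variation was not tested.

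Among resident Kupffer cell genes, Clec4f (ENSRNOG00000013137), a lectin that binds galactose-type glycans and is made by Kupffer cells alone in rodents, had 202, 186, 259 and 208 CPM in FSH livers, against 222, 92.4, 207, 218 and 287 CPM in vehicle livers (replicates in order, here and for all genes). Vehicle replicate 2 was far below the rest, and vehicle replicate 5 was the highest of all 9, so the groups overlapped. The means were 214 ± 31.3 CPM in FSH livers (SD, n = 4) and 205 ± 70.6 CPM in vehicle livers (SD, n = 5) (log2 fold change 0.06 with an SE of 0.26, adjusted p = 0.952 in edgeR). The fold change was −0.13 without vehicle replicate 2 and 0.21 without vehicle replicate 5.

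Vsig4, the receptor that captures complement-coated particles from blood, had 31.6, 32.9, 42.6 and 29.4 CPM in FSH livers, against 39.8, 17.3, 36.4, 33.9 and 51.1 CPM in vehicle livers. Its lowest liver and its 3 highest livers were those of Clec4f (log2 fold change −0.06 with an SE of 0.25, adjusted p = 0.950 in edgeR). Cd163, the scavenger receptor for haemoglobin bound to haptoglobin, had 29.7, 37.3, 46.1 and 27.6 CPM in FSH livers, against 47.8, 21.1, 44.0, 35.2 and 62.8 CPM in vehicle livers. All FSH livers lay inside the vehicle range (log2 fold change −0.26 with an SE of 0.27, adjusted p = 0.765 in edgeR), and the fold change ran between −0.43 without vehicle replicate 2 and −0.07 without vehicle replicate 5.

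Marco, a scavenger receptor for bacteria and particles, spread most widely among the well-detected resident markers, with 10.7, 16.1, 29.7 and 13.2 CPM in FSH livers, against 33.9, 6.99, 8.45, 22.1 and 20.1 CPM in vehicle livers. Each group held both low and high livers (log2 fold change −0.06 with an SE of 0.46, adjusted p = 0.975 in edgeR). Vehicle replicate 3, which was not low for the other resident markers, was near the bottom for Marco. Its fold change was −0.45 without FSH replicate 3 and 0.28 without vehicle replicate 1.

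Timd4, the receptor for phosphatidylserine on dying cells, was close to the limit of detection, with 4, 34, 11 and 10 counts in FSH livers, against 4, 3, 10, 9 and 14 counts in vehicle livers. The 34 counts of FSH replicate 2 stood alone and carried the fold change (log2 fold change 0.80 with an SE of 0.62, adjusted p = 0.669 in edgeR), which was −0.03 without that liver. Folr2, a folate receptor of resident macrophages, had 3.97, 3.41, 4.90 and 5.10 CPM in FSH livers, against 3.09, 2.12, 4.98, 2.29 and 3.24 CPM in vehicle livers. The FSH livers lay above 4 of the 5 vehicle livers, with vehicle replicate 3 inside their range (log2 fold change 0.46 with an SE of 0.25, adjusted p = 0.508 in edgeR). Without vehicle replicate 3 its fold change was 0.70 and its groups no longer overlapped, as in 7.00% of all genes in that fit, and the adjusted p was 0.220.

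**Figure D4:**
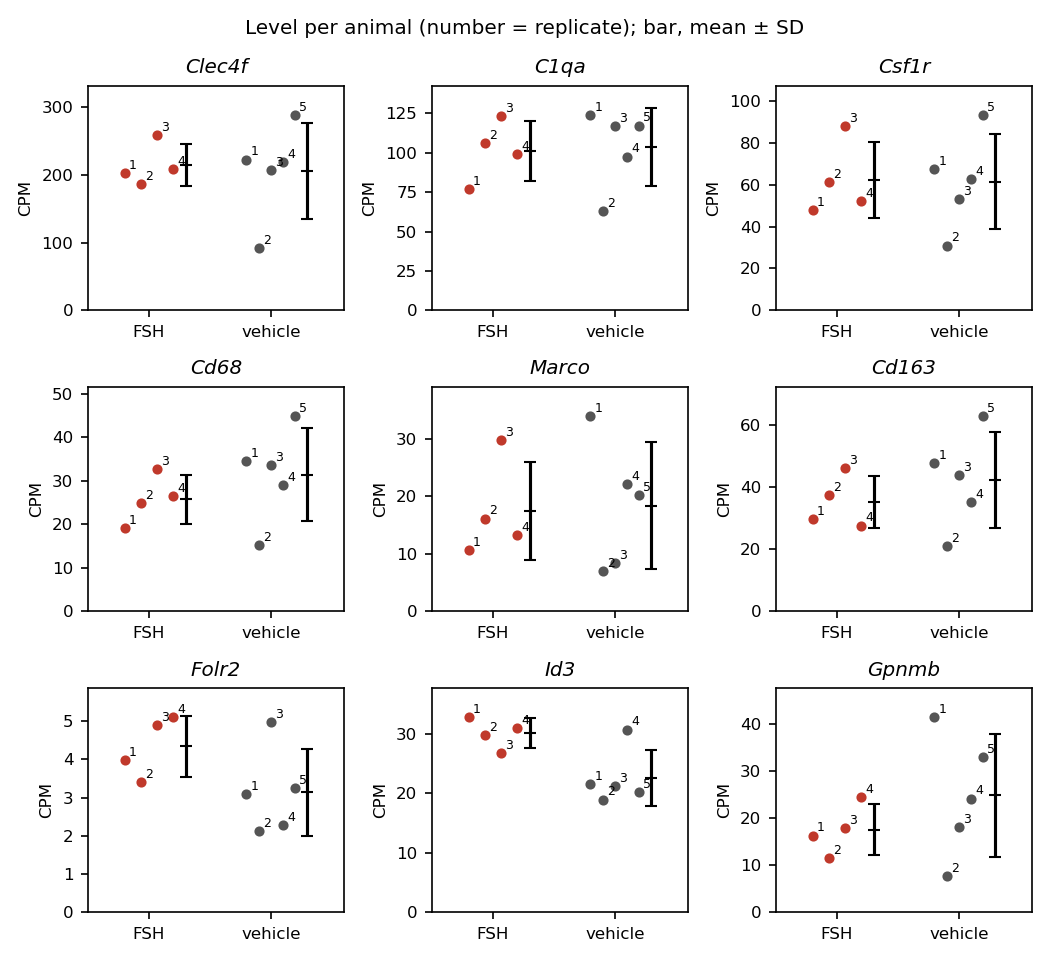
CPM (y axes, from 0) of 9 macrophage genes in each FSH liver (red, left) and each vehicle liver (grey, right), numbered by replicate, with the mean and SD of each group. Vehicle replicate 2 is the lowest point in all 9 panels, and the groups overlap in each.

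The 3 chains of C1q, which assemble into the molecule that starts the classical complement pathway, varied together. C1qa had 76.9, 106, 123 and 99.3 CPM in FSH livers, against 124, 63.0, 117, 97.5 and 117 CPM in vehicle livers (log2 fold change −0.03 with an SE of 0.20, adjusted p = 0.967 in edgeR). C1qb had 55.8, 74.1, 103 and 75.3 CPM in FSH livers, against 90.9, 44.7, 90.1, 75.8 and 101 CPM in vehicle livers (log2 fold change −0.06 with an SE of 0.23, adjusted p = 0.944 in edgeR), and C1qc had 61.7, 86.6, 109 and 80.0 CPM in FSH livers, against 96.8, 47.1, 94.8, 86.1 and 108 CPM in vehicle livers (log2 fold change −0.04 with an SE of 0.23, adjusted p = 0.969 in edgeR). FSH replicate 1 and vehicle replicate 2 were the lowest livers for each chain, and each group spanned most of the range. The ratio of C1qb to C1qa counts lay between 0.700 and 0.838 in FSH livers and between 0.709 and 0.863 in vehicle livers. That of C1qc to C1qa lay between 0.802 and 0.887 in FSH livers and between 0.748 and 0.922 in vehicle livers. These ratios are of reads, not corrected for transcript length.

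Among the regulators, Id3 was the gene nearest to a difference. It encodes an inhibitor of helix-loop-helix transcription factors that Kupffer cells of mice need for their identity. Id3 (ENSRNOG00000026124) had 32.8, 29.7, 26.8 and 31.0 CPM in FSH livers, against 21.5, 18.9, 21.2, 30.7 and 20.2 CPM in vehicle livers. Vehicle replicate 4 lay among the FSH livers and the other vehicle livers lay below all of them. The means were 30.1 ± 2.53 CPM in FSH livers (SD, n = 4) and 22.5 ± 4.69 CPM in vehicle livers (SD, n = 5), and the difference had an unadjusted edgeR p of 0.0112 but did not pass over all genes (log2 fold change 0.42 with an SE of 0.14, adjusted p = 0.319 in edgeR). Without vehicle replicate 4 the groups did not overlap, as in 6.26% of all genes in that fit, with a fold change of 0.55. When any single animal was left out the fold change lay between 0.35 and 0.55 and the smallest adjusted p was 0.124. Id3 is also made by sinusoidal endothelial cells, whose markers had fold changes above 0 in 7 of 8 cases (median 0.33). FSH replicate 1 was the highest liver both for Id3 and for the median of those markers (0.65). FSH replicate 4 was the next highest for Id3, but its median of those markers was 0.10, below the 0.29 of vehicle replicate 4. The part of endothelial cells in the value of Id3 was not tested.

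Spi1, which encodes PU.1, had 5.52, 8.04, 10.5 and 8.21 CPM in FSH livers, against 8.85, 4.86, 7.03, 9.27 and 7.44 CPM in vehicle livers (log2 fold change 0.11 with an SE of 0.21, adjusted p = 0.882 in edgeR), highest in FSH replicate 3 and lowest in vehicle replicate 2. Irf8, its partner in monocytes and macrophages, had 21.0, 22.5, 31.4 and 21.7 CPM in FSH livers, against 28.0, 17.6, 28.6, 24.0 and 29.4 CPM in vehicle livers (log2 fold change −0.08 with an SE of 0.17, adjusted p = 0.899 in edgeR), with FSH replicate 3 apart from the other FSH livers. Spic, which in mice specifies iron-recycling macrophages, was listed at 13, 6, 15 and 9 counts in FSH livers, against 7, 14, 15, 13 and 14 counts in vehicle livers (log2 fold change −0.29 with an SE of 0.30, adjusted p = 0.762 in edgeR), too few for a narrow interval (−0.95 to 0.37). Nr1h3, the oxysterol receptor LXRα of hepatocytes and Kupffer cells, had 146, 165, 147 and 154 CPM in FSH livers, against 189, 160.4, 160.5, 166 and 151 CPM in vehicle livers (log2 fold change −0.11 with an SE of 0.08, adjusted p = 0.643 in edgeR). It had the narrowest standard error of the 33, and vehicle replicate 2 was in the middle of its range.

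The surface receptors followed the shared pattern to different degrees. Csf1r, the receptor for the growth factors CSF1 and IL-34, had 47.9, 61.2, 87.9 and 52.0 CPM in FSH livers, against 67.4, 31.0, 53.2, 62.7 and 93.1 CPM in vehicle livers (log2 fold change 0.02 with an SE of 0.28, adjusted p = 0.988 in edgeR), and Adgre1, which encodes the F4/80 antigen, had 15.4, 18.8, 27.8 and 17.0 CPM in FSH livers, against 20.5, 9.61, 17.6, 22.7 and 29.6 CPM in vehicle livers (log2 fold change −0.01 with an SE of 0.28, adjusted p = 0.995 in edgeR). Both were highest in vehicle replicate 5 and FSH replicate 3 and lowest in vehicle replicate 2. Mrc1, the mannose receptor, was at 39.3 to 56.5 CPM in FSH livers and 34.2 to 51.2 CPM in vehicle livers (log2 fold change 0.16, SE 0.14). Msr1, a scavenger receptor for modified lipoproteins, was at 17.1 to 22.9 CPM in FSH livers and 14.6 to 22.7 CPM in vehicle livers (log2 fold change 0.10, SE 0.14). For both, FSH replicate 1 was the highest liver, although it was among the low ones for Csf1r. Cx3cr1, the fractalkine receptor of monocytes, was listed at 3, 5, 3 and 5 counts in FSH livers, against 0, 0, 3, 9 and 4 counts in vehicle livers. It was too low to be tested.

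Of the genes for sensing microbes and immune complexes, Tlr4, the endotoxin receptor, had 1.55, 1.38, 2.20 and 1.64 CPM in FSH livers, against 1.78, 0.720, 1.38, 1.62 and 1.22 CPM in vehicle livers (log2 fold change 0.34 with an SE of 0.26, adjusted p = 0.652 in edgeR), and vehicle replicate 2 was again alone at the bottom. Its fold change was 0.17 without that liver. Cd14, the co-receptor of Tlr4, was at 28.4 to 48.3 CPM in FSH livers and 24.6 to 45.7 CPM in vehicle livers (log2 fold change 0.16, SE 0.20). It was highest in FSH replicate 2 and vehicle replicate 3, in a different order from the rest of the list. The Fc receptor Fcgr1a (log2 fold change 0.01, SE 0.21) and the signalling adaptors Fcer1g (log2 fold change −0.06, SE 0.23) and Tyrobp (log2 fold change 0.05, SE 0.22) had fold changes near 0. Axl and Mertk, receptor kinases for the uptake of dying cells, had −0.12 (SE 0.24) and −0.10 (SE 0.14).

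None of the lysosomal and effector genes passed either. Cd68, a lysosomal glycoprotein used to count macrophages, had 19.1, 24.9, 32.7 and 26.5 CPM in FSH livers, against 34.5, 15.3, 33.7, 28.9 and 44.8 CPM in vehicle livers. Vehicle livers other than replicate 2 were all above 3 of the 4 FSH livers (log2 fold change −0.28 with an SE of 0.26, adjusted p = 0.725 in edgeR), and without vehicle replicate 2 the fold change was −0.46, at an adjusted p of 0.422. Ctss, the cathepsin that trims the invariant chain of antigen presentation, stood at 32.0 to 51.3 CPM in FSH livers and 19.0 to 47.2 CPM in vehicle livers (log2 fold change 0.04, SE 0.24). The log2 fold changes of Cybb, the NADPH oxidase subunit, Laptm5, a lysosomal membrane protein of blood cells, and Aif1, which encodes IBA1, were 0.02 (SE 0.23), −0.08 (SE 0.19) and 0.16 (SE 0.21), with vehicle replicate 2 the lowest liver each time. Lyz2, a lysozyme, had 13.4, 15.9, 17.4 and 17.1 CPM in FSH livers, against 13.8, 12.5, 14.3, 26.2 and 14.1 CPM in vehicle livers (log2 fold change −0.02, SE 0.21), with vehicle replicate 4 alone at the top and 0.22 without it. Its count is uncertain, since the table lists another lysozyme gene beside it that may share its reads.

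No gene of the lipid-associated state passed. Gpnmb, a glycoprotein of lysosome-rich macrophages, had 16.3, 11.6, 17.9 and 24.5 CPM in FSH livers, against 41.4, 7.71, 18.2, 24.2 and 33.0 CPM in vehicle livers. Only Timd4 and Marco had a wider standard error (log2 fold change −0.49 with an SE of 0.40, adjusted p = 0.681 in edgeR), with vehicle replicate 1 more than any FSH liver and vehicle replicate 2 less than any. The fold change was −0.23 without vehicle replicate 1 and −0.73 without vehicle replicate 2. Trem2, the lipid receptor that defines this state, was listed at 0, 1, 0 and 4 counts in FSH livers, against 0, 2, 1, 1 and 3 counts in vehicle livers, so no change could be measured. A count of 0 allows up to 0.119 and 0.116 CPM in FSH replicates 1 and 3 and up to 0.157 CPM in vehicle replicate 1 (3 counts, counting error only). Lgals3, the lectin galectin-3, reached 16.8 CPM in FSH livers and 15.8 CPM in vehicle livers, with vehicle replicate 2 lowest at 9.04 CPM (log2 fold change −0.12 with an SE of 0.19, adjusted p = 0.855 in edgeR). Slc40a1, the iron exporter ferroportin, was listed at 0, 0, 1 and 1 counts in FSH livers, against 1, 1, 0, 1 and 0 counts in vehicle livers. The annotation used for counting is not given in the sources used here, so these low counts are given only as listed.

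Proportions between genes of the list were also read within each liver, and those given here were chosen after their values were seen. For each read of Cd68 there were 10.6, 7.48, 7.90 and 7.85 reads of Clec4f in FSH livers, against 6.45, 6.04, 6.13, 7.55 and 6.41 in vehicle livers. Vehicle replicate 4 lay just above FSH replicate 2, and the other vehicle livers lay below every FSH liver. Id3 gave 1.72, 1.19, 0.817 and 1.17 reads per read of Cd68 in FSH livers, against 0.623, 1.24, 0.631, 1.06 and 0.451 in vehicle livers, where the groups overlapped. No test was made of these ratios.

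Leaving out 1 animal moved the balance of signs but gave no call. Without vehicle replicate 2 the fold change was above 0 for 8 genes and below 0 for 25, with a median of −0.15 and with 3 of 33 genes at an unadjusted p under 0.05, beside 10.6% of all genes. Without FSH replicate 3 it was above 0 for 7 and below 0 for 26, with a median of −0.12. Without FSH replicate 1 it was above 0 for 23 and below 0 for 10, with a median of 0.08. Without vehicle replicate 5 it was above 0 for 20 and below 0 for 12 of the 32 genes then tested, with a median of 0.08. In each of the 9 such fits 0 macrophage genes passed, where between 0 and 4 genes of the whole table did.

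**Figure D5:**
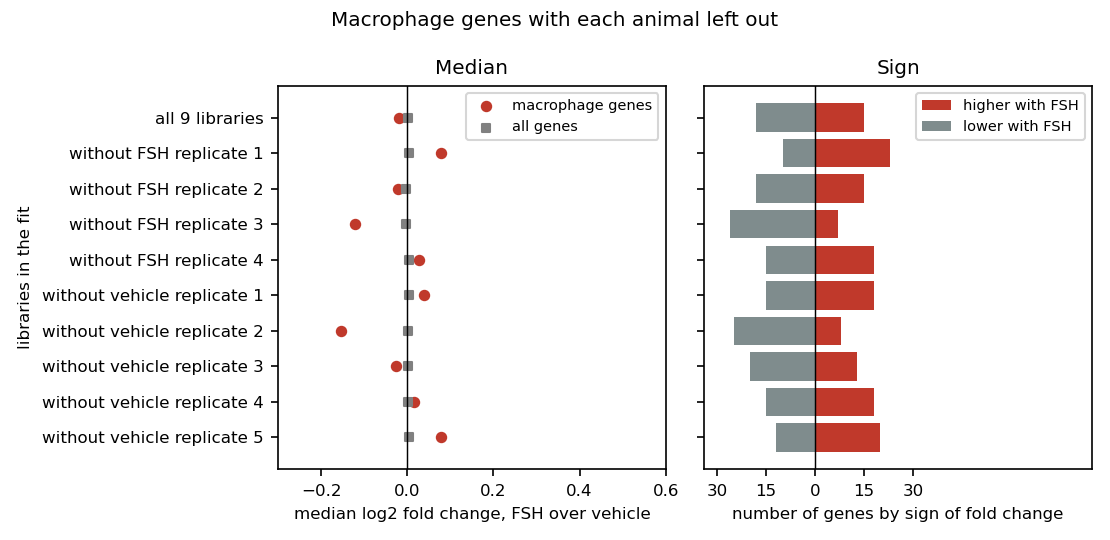
Left, median log2 fold change of FSH over vehicle of the macrophage genes (red) and of all genes tested (grey) with all 9 livers and with each left out. Right, the number of macrophage genes with a fold change above 0 (red) and below 0 (grey); the median lies between −0.15 and 0.08, and the majority of signs turns with the liver left out.

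Other genes of macrophages and monocytes, taken from a list of 62 of which 53 were tested, gave 0 genes past FDR 0.05 in edgeR, with 36 fold changes above 0 and 17 below (median 0.06). The 2 with the smallest p were Tfrc, the transferrin receptor, and Myd88, the adaptor of Toll-like receptors, both of which hepatocytes express too. Tfrc had 31.6, 34.4, 35.6 and 35.5 CPM in FSH livers, against 41.5, 59.4, 60.9, 45.3 and 48.9 CPM in vehicle livers (log2 fold change −0.58 with an SE of 0.12, adjusted p = 0.175 in edgeR), and every FSH liver lay below every vehicle liver. Myd88 had 51.6, 53.9, 59.5 and 60.7 CPM in FSH livers, against 42.8, 37.2, 47.6, 41.9 and 47.6 CPM in vehicle livers (log2 fold change 0.38 with an SE of 0.09, adjusted p = 0.204 in edgeR), and every FSH liver lay above every vehicle liver. Groups did not overlap in 2 of these 53 genes, beside 4.11% of all genes. DESeq2's Wald test called both, Tfrc and Myd88 at adjusted p of 0.00273 and 0.0246, beside 1.64% of all genes to which it gave an adjusted p. Csf1, the ligand of Csf1r, had 10.6, 26.1, 16.0 and 13.6 CPM in FSH livers, against 10.2, 8.53, 16.3, 9.27 and 14.1 CPM in vehicle livers (log2 fold change 0.51 with an SE of 0.27, adjusted p = 0.508 in edgeR), with FSH replicate 2 far above the rest and a fold change of 0.20 without it. Il34, the other ligand, was at −0.01 (SE 0.18).

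In the lists of other liver cells, 0 genes passed FDR 0.05 in edgeR. DESeq2 called Clec4g, Col3a1 and Hbb, beside 1.64% of all genes to which it gave an adjusted p. Values in brackets are log2 fold changes, and the genes of each list are named by the smallest edgeR p, not by the largest fold change. Sinusoidal endothelial markers had 7 of 8 fold changes above 0 (median 0.33), led by Clec4g (0.61, SE 0.13) and Stab1 (0.43, SE 0.11). Stellate cell markers had 7 of 8 below 0 (median −0.22), led by Col3a1 (−0.45, SE 0.11) and Col1a1 (−0.92, SE 0.37). Erythroid genes had 3 of 3 above 0 (median 0.87), led by Hbb (1.54, SE 0.35) and Hba-a2 (0.80, SE 0.38). FSH replicate 3 stood far above the rest: its median erythroid deviation from the vehicle mean was 2.12. It was 0.54, −0.23 and 0.44 in FSH replicates 1, 2 and 4, and −0.49 to 0.64 in vehicle livers. The smallest p-values elsewhere belonged to S100a9 (0.56, SE 0.45) and Fcnb (0.27, SE 0.37) among neutrophil genes (median 0.27), Nkg7 (−0.33, SE 0.27) among T, NK and B cell genes (median 0.08), and Zbtb46 (0.33, SE 0.17) and Flt3 (−0.19, SE 0.18) among dendritic cell genes (median 0.01). They belonged to Apoa1 (−0.35, SE 0.19) and Ttr (−0.16, SE 0.12) among hepatocyte genes (median −0.09) and to Cftr (−0.74, SE 0.34) and Krt7 (−0.76, SE 0.41) among cholangiocyte genes (median −0.54).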

How the data were processed

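Messenger RNA of snap-frozen liver was sequenced from both ends in directional libraries, per the labels' protocols. The authors deposited whole-number read counts per gene, not normalised, with symbols and Ensembl identifiers. Per the submitters' processing notes, the build was rn6 and the tools were STAR, DESeq2 and edgeR, with neither versions nor roles. Which annotation and strand rule the counting used was not given in the sources used here, so reads of overlapping or antisense genes may not be told apart.

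FSH and vehicle groups were tested with the 2-sided quasi-likelihood test of edgeR 4.0.16 in R 4.3.3, after TMM scaling and edgeR's filter on low counts, with Benjamini-Hochberg adjustment over the 11924 genes kept and a threshold of 0.05. Each standard error is the fold change divided by the root of F, and gives the 95% interval. A single read is worth 0.0353 to 0.0532 CPM. Log2 CPM used a prior count of 2. No library repeated another: the closest pair still had a chi-square of 25.9 per degree of freedom. The steps were tested on simulated counts.

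The genes, the lists and the tests were chosen with earlier results of these data known. Values in every liver are given for the resident markers, the C1q chains, Cd68, Adgre1, Csf1r, Trem2 and Gpnmb, for genes with an unadjusted p under 0.05, and for the 3 highest and lowest fold changes with a mean of at least 1 CPM; those of further genes, and the leave-out values quoted, were added after they were seen. From the other lists the 2 genes with the smallest p are named, except for 1 that is not reported here; Csf1 and Il34 were added after their values were seen. Alternatives were RLE and total-count scaling, testing without a filter, a stricter filter (1 CPM or more in 4 or more libraries), a replicate block, DESeq2 1.42.0, limma-voom (limma 3.58.1) with quality weights, an FDR of 0.10, thinning to 19295580 counts, and leaving out each animal. Promoters came from RefSeq (GRCr8), not from rn6, and no coordinate was taken from the count table. Setting genes against the list's own median was chosen after seeing the data.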

Additional observations from a re-analysis of the deposited data

Results flagged for a closer look

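In 68 sets of values, the macrophage genes and their median in each group, the gap between the outermost liver and its neighbour was set against the whole range. A liver stood apart in 9, where chance gives about 1 in 20, or 3.4; the sets are not independent, since the genes vary together. In the vehicle group, replicate 2 was set apart at the low end for Ctss (19.0 CPM, next 39.5), Fcer1g (11.0 CPM, next 20.4), Tyrobp (8.68 CPM, next 16.4), Laptm5 (12.2 CPM, next 20.7) and Lgals3 (9.04 CPM, next 14.8), and for the median of all macrophage genes (−0.77 on the log2 scale relative to the vehicle mean, next 0.10). Vehicle replicate 4 was set apart at the high end for Id3 (30.7 CPM, next 21.5) and Lyz2 (26.2 CPM, next 14.3). In the FSH group, replicate 3 was set apart at the high end for Irf8 (31.4 CPM, next 22.5).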

How the results depend on the processing

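The count of 0 macrophage genes past the threshold held under every alternative run. The number of genes called in the whole table, 4 in edgeR, was 184 with DESeq2, 12 at an FDR of 0.10 and 9 with thinned libraries, and between 0 and 4 when 1 animal was left out (0 without FSH replicate 1, FSH replicate 3, vehicle replicate 1 or vehicle replicate 4). The other macrophage and monocyte genes called were 2 of 53 with DESeq2, beside 1.64% of all genes to which it gave an adjusted p. Macrophage genes whose groups did not overlap numbered between 0 and 1 when 1 animal was left out (Folr2 without vehicle replicate 3, Id3 without vehicle replicate 4), beside 5.41% to 8.36% of all genes in those fits, so the share in the list was not above that of all genes. The median fold change of macrophage genes ranged from −0.15 to 0.08 over the fits that left out 1 animal. The fold change of Timd4 lay between −0.025 (without FSH replicate 2) and 1.11 (without FSH replicate 1). With a replicate block, 5 genes were called in the whole table, 0 of them macrophage genes, and the median of the macrophage genes was 0.12, with 23 fold changes above 0; vehicle replicate 5, the liver without a partner, then has no weight. The numbers gave no sign of pairing the animals. Deviations of same-numbered livers correlated at 0.04, 0.005, 0.03 and −0.04 (replicates 1 to 4, across genes, which are not independent), and no FSH liver correlated best with its own number. A weak pairing could be missed by so few values. Counting error weighs most in genes of few counts, such as Spic and Timd4. For Timd4 the spread between animals was also wide, with 34 counts in FSH replicate 2 against 4, 11 and 10 in the other FSH livers. The shares of counting error and of spread between animals in the standard errors were not measured.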
